A study of Mus musculus with 2 samples.

Results

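The imprinted growth genes are 10 genes that are expressed mainly from 1 parental copy and that act on fetal growth. They are Igf2, H19, Igf2r, Cdkn1c, Kcnq1ot1, Dlk1, Meg3, Peg3, Plagl1 and Grb10, listed by name and located in GENCODE vM21 on mm10, where they make 10 of 55413 annotated genes. For each gene, sites were read within 500 bp of any transcription start site (TSS), in the gene body and up to 50 kb beyond it. Known control regions in these windows were read as well. The data are DNase-seq maps of open chromatin, made by cutting accessible DNA in nuclei with DNase I and sequencing the ends. All samples were newborn heart, taken from B6NCrl mice at postnatal day 0, with no allele or agent named in the labels. They form 1 group of 2 libraries, biological replicates 1 and 2, which carry the same donor label. An SD given here is therefore only the spread between those samples and may be technical.

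Genomic imprinting marks the maternal and the paternal copy of a gene differently by DNA methylation laid down in the germ line. A control region that is methylated on 1 copy decides which copy of each gene in a cluster is active. In some clusters it acts through the insulator protein CTCF or through long noncoding RNAs (lncRNAs). Paternally expressed members such as Igf2, Dlk1, Peg3 and Plagl1 tend to favour growth, and maternally expressed members such as Igf2r, Cdkn1c, Grb10 and H19 tend to restrain it. B6NCrl is an inbred strain and the deposited lists hold no alleles, so the parental copies cannot be told apart here.

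On the autosomes and sex chromosomes 164657 peaks were analysed for replicate 1 and 144708 for replicate 2. A peak spans 150 bp, and its height is the whole number that the authors listed with it. The median height was 36 in the first library and 35 in the second, and among peaks within 500 bp of a TSS it was 54.0 and 52.0. Hotspots are wider regions of raised cleavage and carry a −log10 q that stops at 100. Read totals were not used here, so depth is unknown, and the absence of a weak peak does not show a closed site. In bulk tissue, a site open in fewer cells and a site less open in each cell cannot be told apart. All 13 marker genes of heart muscle, endothelium, fibroblasts and smooth muscle had a promoter peak in both libraries. Of 11 markers of liver, blood and neurons only the neuronal gene Rbfox3 had one in both.

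Most of the growth genes had an open promoter. A peak lay within 500 bp of a TSS in both libraries at 9 of 10 members, and a hotspot did so at the same number. Of the 7 protein-coding members 6 had the peak in both libraries, beside 63.7% of all protein-coding genes. The 3 lncRNA members all had it, beside 26.9% of all lncRNA genes. For hotspots the counts were 6 of 7 and 3 of 3, with shares of 64.5% over protein-coding and 28.6% over lncRNA genes. A gene with more TSSs has more chances of such a site, and these shares were not matched for the number of TSSs. The members have many alternative starts: TSSs chained at gaps of at most 500 bp gave 40 starts, of which 16 had a peak in both libraries, 3 in only 1 library and 21 in neither. A peak near neighbouring starts counts for each of them, as with a peak of 48 and 43 in Cdkn1c and one of 32 in Dlk1. The share over the starts of all genes was not computed.

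**Figure D1:**
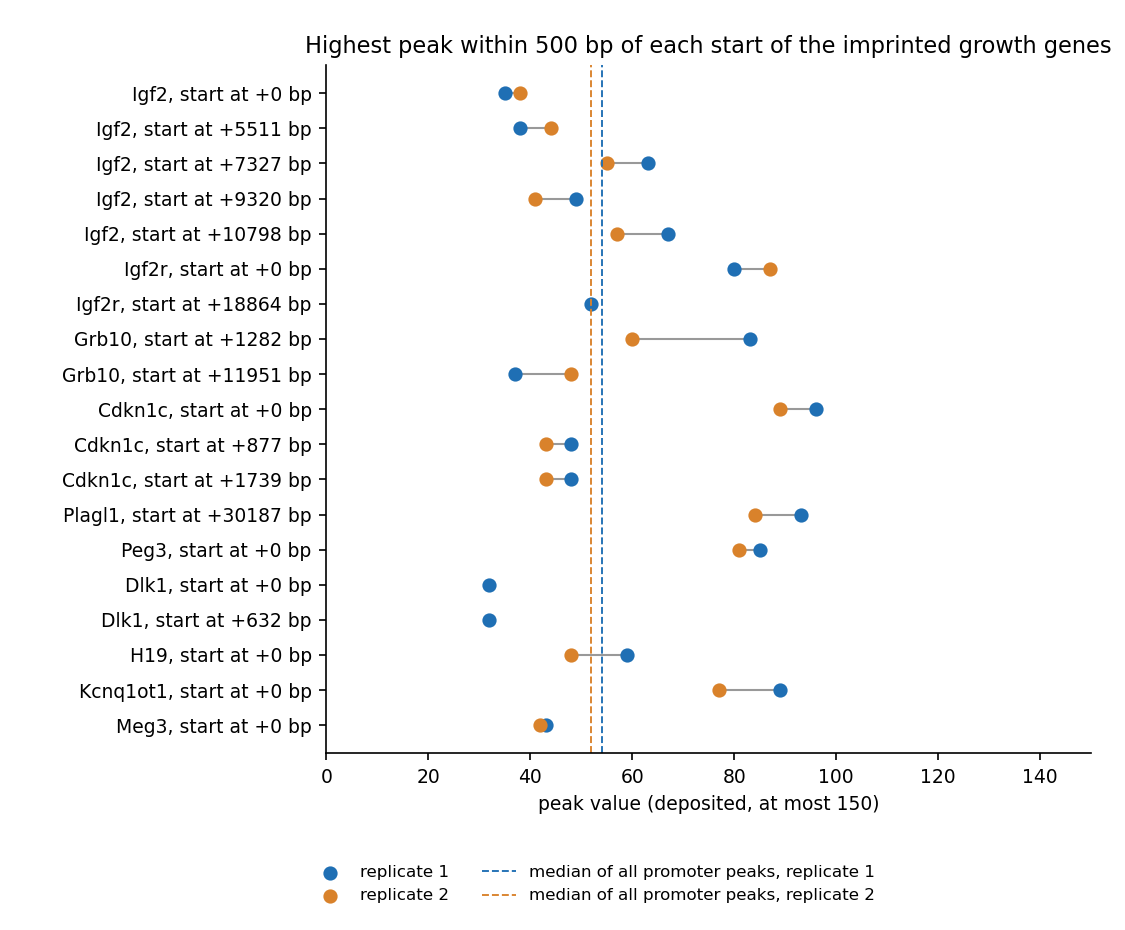
Value of the highest peak within 500 bp of each start that had a peak (x axis, deposited value; y axis, gene and bp from its 5'-most TSS), with 1 dot per library and dashed lines at the median of all promoter peaks. The main starts of Cdkn1c, Plagl1, Igf2r, Kcnq1ot1 and Peg3 lie at 77 or above in both libraries, while the starts of Meg3 and Dlk1 lie below both medians.

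Igf2 encodes insulin-like growth factor 2, the main growth factor of the fetus, and lies at chr7:142650766-142666816 on the minus strand. Of its 7 starts 5 had a peak in both libraries. The start 10798 bp inside the gene had values of 67 and 57 in replicates 1 and 2 (62.0 ± 7.07, SD, n = 2), and the start at 7327 bp had 63 and 55 (59.0 ± 5.66). These were the highest of the gene, and both lay above the median of all promoter peaks in each library. The start at 9320 bp had 49 and 41 (45.0 ± 5.66), and the 5'-most start had 35 and 38 (36.5 ± 2.12). At 5511 bp each library listed 2 peaks that overlapped those of the other, 38 and 38 in replicate 1 against 44 and 41 in replicate 2. No peak was listed at the starts at 4946 and 13786 bp. Igf2 was thus open at most of its alternative starts, and its antisense gene Igf2os shares part of them. The hotspots differed between libraries: at the starts at 7327, 9320 and 10798 bp they reached the top −log10 q of 100 in replicate 1, but 3.59, 1.55 and 2.99 in replicate 2.

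Both Igf2r and Grb10 act on the ligand or its signal. Igf2r encodes the mannose 6-phosphate receptor, which takes up IGF2 and delivers it to lysosomes for degradation (chr17:12682406-12769664, minus strand). Its CpG-rich 5' start had values of 80 and 87 (83.5 ± 4.95, SD, n = 2), and its hotspot reached the top −log10 q of 100 in both libraries. Grb10 encodes an adaptor that binds the insulin and IGF1 receptors and restrains their signal (chr11:11930508-12038683, minus strand). Its CpG-rich start 1282 bp inside the gene had values of 83 and 60 (71.5 ± 16.3), the widest gap between libraries among the member promoters with overlapping peaks. Of its other starts 6 had no peak in either library, and the remaining one lies in its control region.

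Cdkn1c encodes p57, an inhibitor of cyclin-dependent kinases that stops the cell cycle (chr7:143458339-143461050, minus strand). It had the highest promoter of the group, with values of 96 and 89 (92.5 ± 4.95, SD, n = 2), above 95.6% of peaks of replicate 1 and 94.6% of replicate 2. A second peak 1359 bp inside the gene had 48 and 43. Plagl1, which encodes a zinc finger transcription factor of the imprinted network (chr10:13060504-13131694, plus strand), had no promoter peak at its 5'-most TSS. Its peak lay 30227 bp inside the gene, at the CpG-rich start that 22 of its 25 transcripts use, with values of 93 and 84 (88.5 ± 6.36). Peg3 encodes another zinc finger factor (chr7:6703892-6730431, minus strand). Its start had 85 and 81 (83.0 ± 2.83) and is shared with Usp29, which is transcribed the other way, so that peak belongs to either gene or both.

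Dlk1 stood apart. It encodes a membrane protein related to Notch ligands that holds progenitor cells undifferentiated (chr12:109452823-109463336, plus strand). Replicate 1 listed 1 weak peak 448 bp inside the gene, with a value of 32, above 40.4% of the peaks of that library, and with a hotspot −log10 q of 1.47. Replicate 2 listed none, neither at a start nor anywhere in the gene body. At the start used by most of its transcripts, 632 bp inside the gene, the ratio of observed to expected CpG was 0.811. Open starts of other members lay on either side of it, from 0.0606 at the 5'-most start of Igf2 and 0.448 at Kcnq1ot1 to 1.06 at the main start of Grb10. Starts of other members with no peak in either library ran from 0.0781 in Peg3 to 0.524 in Meg3. Whether CpG content bears on the peaks of Dlk1 was not tested.

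The 3 lncRNAs differed among themselves. Kcnq1ot1, the antisense RNA that silences Cdkn1c and its neighbours on the paternal copy (chr7:143203458-143296549, minus strand), had 89 and 77 (83.0 ± 8.49, SD, n = 2). H19, a maternally expressed RNA that also carries the microRNA miR-675 (chr7:142575529-142578143, minus strand), had 59 and 48 (53.5 ± 7.78). Meg3, the maternally expressed RNA of the Dlk1 cluster (chr12:109541001-109571726, plus strand), had 43 and 42 (42.5 ± 0.707). Kcnq1ot1 was the highest of the 3 in each library and Meg3 the lowest. Neither library listed a peak whose centre fell inside the body of H19.

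Control and enhancer regions known for these genes, 9 in all, were placed by distance from annotated starts. Of these, 8 of 9 held a peak in each library. In 6 of them the window surrounds a start, and all 6 held a promoter peak, as do 63.7% of all protein-coding and 26.9% of all lncRNA genes. Apart from the start of Airn, these are starts of members counted above, so they repeat the promoter result. Of the other 3 regions 2 held a peak in each library, beside 15.3% of all 5 kb tiles of the genome. At one of the 8, the endodermal enhancers of H19, the peaks of the libraries (38 and 29) did not overlap. The best studied is the H19 control region, between H19 and Igf2. CTCF binds it on the unmethylated maternal copy and there blocks the enhancers downstream of H19 from reaching Igf2. RefSeq annotates 4 CTCF sites in it, named m1 to m4, on the same build (GRCm38). They are shown on the minus strand, the strand of H19, because every peak of the region lies on one of them. Capitals mark the CTCF core letters GGNGGCAG, searched on both strands.
m4, chr7:142580301-142580347: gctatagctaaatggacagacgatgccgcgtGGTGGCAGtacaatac
m3, chr7:142580756-142580803: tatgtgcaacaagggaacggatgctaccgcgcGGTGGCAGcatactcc
m2, chr7:142581782-142581826: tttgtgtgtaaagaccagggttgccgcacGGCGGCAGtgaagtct
m1, chr7:142582026-142582073: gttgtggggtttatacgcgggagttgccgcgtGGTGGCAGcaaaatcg

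The control region held 3 peaks in each library, and each peak covered 1 of these CTCF sites. The peak on m4 had values of 30 and 42 in replicates 1 and 2, the peak on m3 had 54 and 51, and the peak on m2 had 36 and 40. Neither library listed a peak on m1, although its core letters are the same as those of m3 and m4. In replicate 2 a hotspot reached over m1, with a −log10 q of 2.98, and in replicate 1 none did. The region held 5 matches to the core letters, all on the strand of H19, and the 3 inside peaks were the same in both libraries. Of all peaks, 7.71% in replicate 1 and 8.20% in replicate 2 hold such a match. The peaks on these annotated sites were of middling height, above 35.7% to 74.8% of the peaks of their library. Their hotspots were weak, with a highest −log10 q of 3.07 and 4.29. Binding of CTCF itself was not measured.

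**Figure D2:**
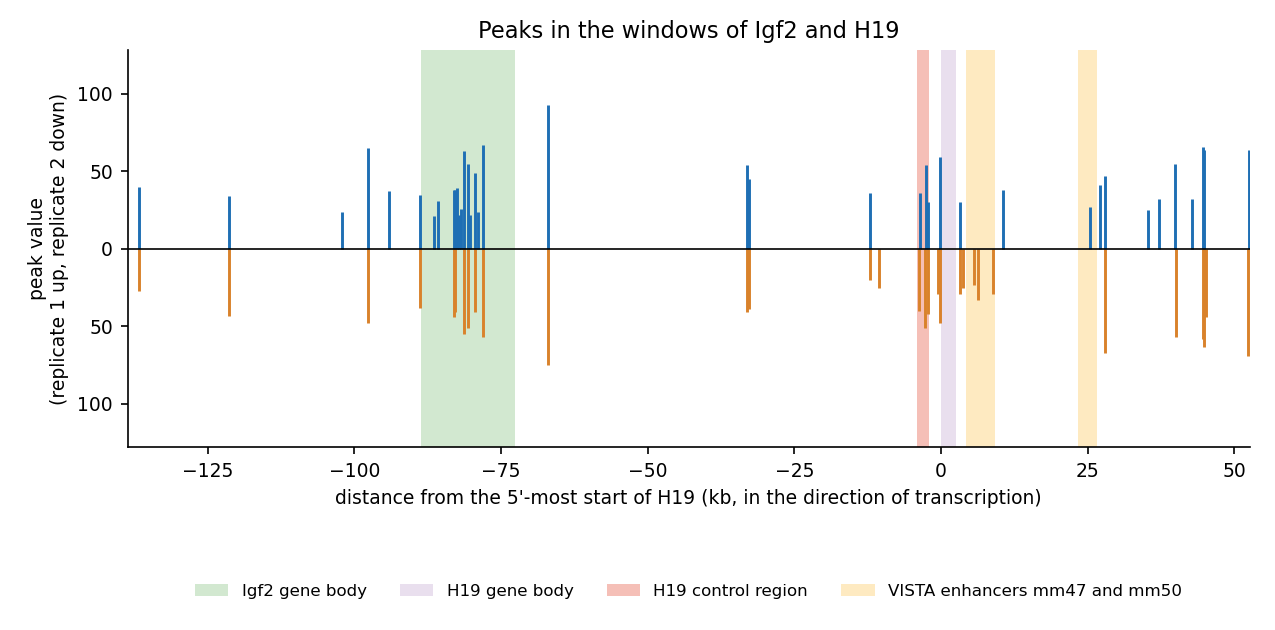
Peaks in the windows of Igf2 and H19, by distance from the 5'-most TSS of H19 (kb) and by value, with replicate 1 above and replicate 2 below the axis; shading marks the gene bodies, the H19 control region and VISTA enhancers. Peaks crowd in the body of Igf2 and at the control region, the body of H19 is empty, and the highest peak (93 and 75) lies between the genes.

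Downstream of H19 lies a string of conserved segments, most of them enhancers of endoderm, mesoderm, ectoderm or muscle. RefSeq annotates 10 of them here, and none had a peak in both libraries: 1 was overlapped by a peak in replicate 1 and 2 were in replicate 2. The segments are only 228 to 486 bp long, and 15.3% of all 5 kb tiles had a peak in both libraries. The count therefore does not show that the segments lack peaks more than other sequence does. The skeletal muscle segment had a peak of 41 in replicate 1 only, and the endoderm segment E2 had one of 29 in replicate 2 only. Stronger sites, shared by both libraries, lay between or beyond these segments. A peak 28032 bp from the H19 start had values of 47 and 67, one at 39992 bp had 55 and 57, and one at 52452 bp had 64 and 69 (66.5 ± 3.54, SD, n = 2). Between the genes, a peak 21625 bp downstream of the 5' start of Igf2 had 93 and 75 (84.0 ± 12.7), the highest of either window in both libraries.

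At the Kcnq1 cluster the control region KvDMR1 holds the promoter of Kcnq1ot1. It had 2 peaks in each library, the promoter peak of 89 and 77 and another 798 bp inside the transcript with 53 and 42. The latter is rich in CpG, with 17 CpG in 150 bp, and holds the letters TGCCGC recognised by ZFP57, a protein that keeps the methylated copy methylated. All 3 matches of the 2001 bp region lay at that site, 2 of them inside the peak of replicate 1 and 3 inside that of replicate 2. Of all peaks, 4.32% and 4.64% hold this motif, shares that were not matched for CpG or GC content. The sequence of the replicate 1 peak is given below on the strand of Kcnq1ot1 (minus), with both matches in capitals, one of them in its reverse complement GCGGCA.
KvDMR1, chr7:143295676-143295825: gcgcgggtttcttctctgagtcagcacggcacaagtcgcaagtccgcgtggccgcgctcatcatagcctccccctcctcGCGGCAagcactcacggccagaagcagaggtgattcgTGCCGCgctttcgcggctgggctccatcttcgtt

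The control region of Peg3 covers its first exon and the start of its first intron, where repeated sites for the factor YY1 are known to lie. It held more peaks than any other of the 9 regions, 7 in each library, and all 7 overlapped between libraries. Its window of 5001 bp was also longer than most of the others. Peaks covered 21.0% of it in each library, against 22.5% of the 2001 bp H19 control region. Of 5 kb tiles, 0.0794% in replicate 1 and 0.0756% in replicate 2 held as many or more. Unlike this window, the tiles were not placed on a start. The highest peaks of the region had values of 107 and 87 at 2000 bp inside the gene (97.0 ± 14.1, SD, n = 2), 98 and 98 at 1620 bp (98.0 ± 0), and 98 and 86 at 2500 bp (92.0 ± 8.49). A further peak at 840 bp had 91 and 93, and these 4 lay above the promoter peak itself in both libraries. A hotspot of 2600 bp in replicate 1 and one of 1769 bp in replicate 2 lay over the region, both at the top −log10 q.

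The YY1 letters GCCATNTT occurred 12 times in the 5001 bp of the Peg3 region, every time on the strand of Peg3. Of these, 6 lay inside a peak of replicate 1, 7 inside a peak of replicate 2 and 6 inside peaks of both, where peaks covered 21.0% of the region in each library. Only 2.27% of all peaks in replicate 1 and 2.48% in replicate 2 hold a match. The 4 intronic peaks with a match are printed on the strand of Peg3 (minus), as replicate 1 placed them, because the repeated letters can be read in them directly. Capitals mark the YY1 letters.
Peg3 at 840 bp, chr7:6729516-6729665: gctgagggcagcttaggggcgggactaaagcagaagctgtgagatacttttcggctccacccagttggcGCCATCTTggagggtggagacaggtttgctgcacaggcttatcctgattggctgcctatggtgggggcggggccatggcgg
Peg3 at 1620 bp, chr7:6728736-6728885: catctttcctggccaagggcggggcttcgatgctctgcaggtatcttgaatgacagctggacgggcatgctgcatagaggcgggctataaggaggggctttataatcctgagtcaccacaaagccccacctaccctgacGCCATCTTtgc
Peg3 at 2000 bp, chr7:6728356-6728505: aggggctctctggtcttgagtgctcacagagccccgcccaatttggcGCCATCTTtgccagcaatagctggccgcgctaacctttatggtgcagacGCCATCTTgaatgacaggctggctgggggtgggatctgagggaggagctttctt
Peg3 at 2500 bp, chr7:6727856-6728005: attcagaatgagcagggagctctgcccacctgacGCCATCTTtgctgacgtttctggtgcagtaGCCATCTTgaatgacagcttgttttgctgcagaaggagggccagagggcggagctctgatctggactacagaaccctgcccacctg

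The matches in these 4 peaks all read GCCATCTT. The peak at 2880 bp, with values of 74 and 63, and the promoter peak held none.

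**Figure D3:**
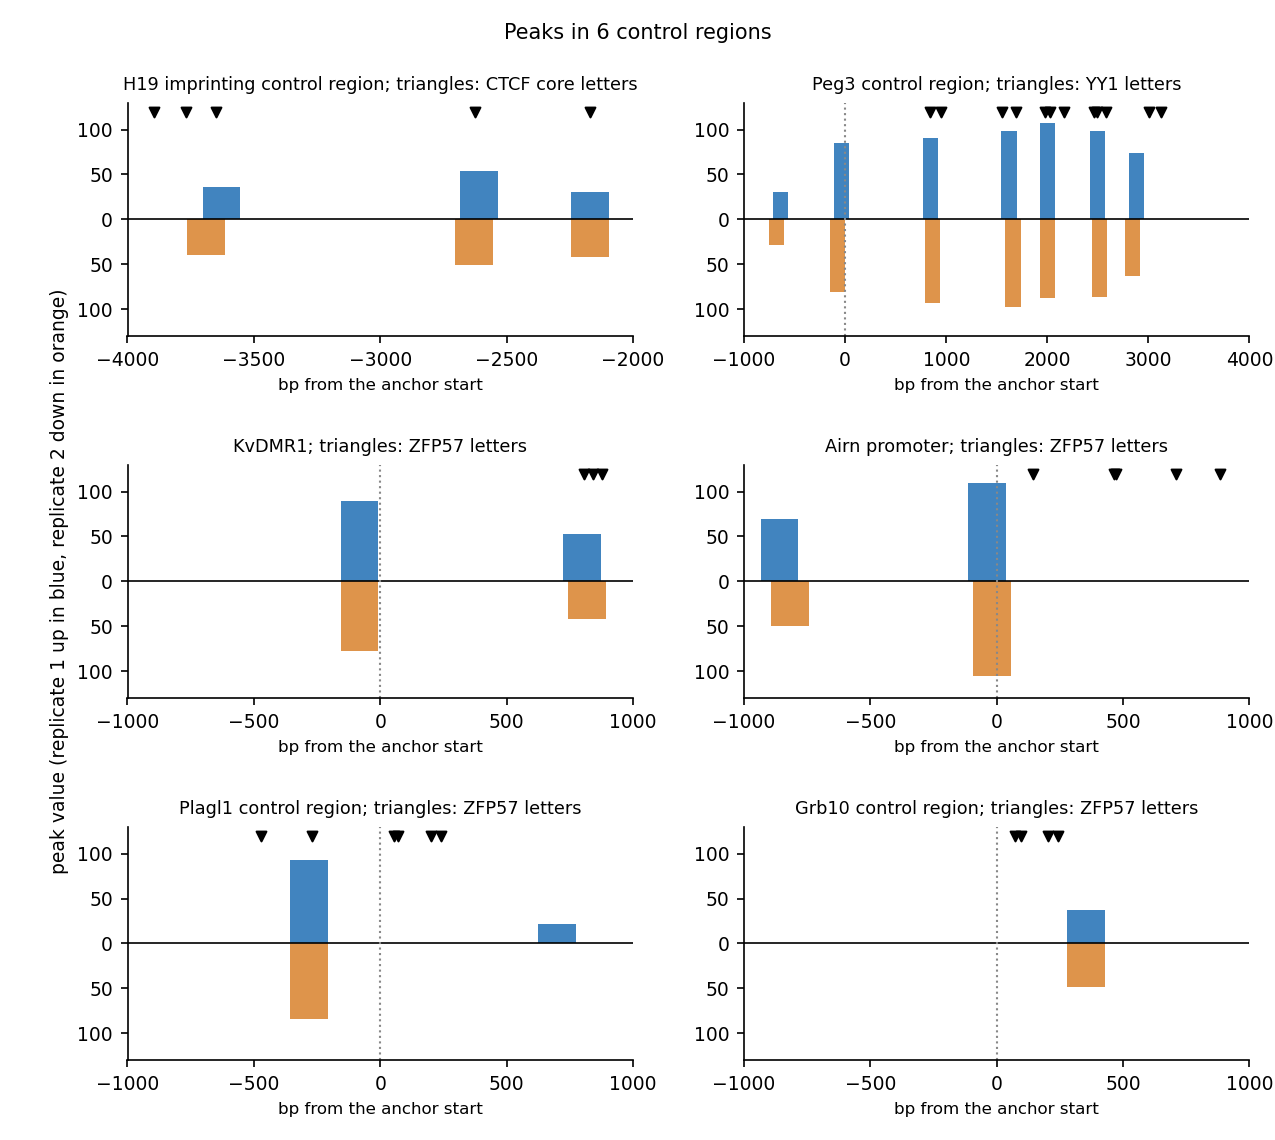
Peaks of 6 control regions by bp from the anchoring TSS (dotted line) and by value, replicate 1 up and replicate 2 down; each bar is 1 peak of 150 bp and triangles mark motif letters on either strand. The H19 peaks sit under 3 of 5 CTCF matches, Peg3 shows 7 peaks in each library, and Airn has the highest bar, at 109 and 105.

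Airn, the paternal RNA antisense to Igf2r, starts inside the control region in intron sequence of Igf2r. Its start had values of 109 and 105 (107 ± 2.83, SD, n = 2), the highest of any peak in the windows of the members, and a peak of 69 and 50 lay 860 bp upstream of it. The Plagl1 control region is the promoter peak of 93 and 84 already named, and replicate 1 alone listed another of 22. That promoter peak holds 1 of the 6 ZFP57 matches of its region, shown here on the plus strand in capitals as its reverse complement GCGGCA.
Plagl1, chr10:13090656-13090805: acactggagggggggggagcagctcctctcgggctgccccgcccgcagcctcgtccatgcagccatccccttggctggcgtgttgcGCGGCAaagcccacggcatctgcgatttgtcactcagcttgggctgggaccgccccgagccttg

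In Grb10 the control region is a CpG island over an internal start that neurons use. It had a peak of 37 and 48 (42.5 ± 7.78, SD, n = 2), above 50.9% and 69.8% of the peaks of its library and below the main start of the gene in both libraries. At the Dlk1 and Meg3 cluster the control region between the genes (IG-DMR) was the exception among the regions. Replicate 1 listed no peak in its 6001 bp and replicate 2 listed 1, with a value of 32. Of its 10 ZFP57 matches 1 lay inside that peak. The second control region of the cluster is the Meg3 promoter with its peak of 43 and 42. In neither library did a ZFP57 match lie inside a peak at the Meg3 promoter (1 match), Airn (5), Peg3 (8) or Grb10 (4). At the H19 control region 4 of 5 matches did so in both libraries, and some of these lie in its CTCF sites.

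Distal peaks, with a centre more than 1 kb from every TSS, were counted per 100 kb of window. The median over the members was 8.28, beside 5.26 for all protein-coding genes and 5.40 for lncRNA genes. Igf2r had the most in both libraries, 42 in replicate 1 and 30 in replicate 2, or 19.2 ± 4.53 per 100 kb (SD, n = 2), which is higher than 99.5% of protein-coding genes. H19 followed with 15 in each library, 14.6 ± 0 per 100 kb, higher than 97.1%, and below the 22.4 and 16.0 of Igf2r in the single libraries. The SD of 0 reflects equal totals, not the same peaks. Of all peaks in the H19 window, 13 of 19 in replicate 1 and 13 of 20 in replicate 2 were found in both libraries. Cdkn1c (10.2 ± 2.07), Peg3 (9.48 ± 2.24) and Plagl1 (9.05 ± 1.24) came next and overlapped within their spread. Kcnq1ot1 (7.51 ± 1.83) and Grb10 (7.21 ± 2.72) also overlapped, as did the pair below them. This pair, Igf2 (5.17 ± 1.22) and Dlk1 (4.52 ± 1.28), lay near the median of all protein-coding genes. Spreads also overlapped between these groups, as that of Grb10 reached both that of Plagl1 and that of Igf2. Meg3 was lowest, with 2 and 4 distal peaks, 2.29 ± 1.08 per 100 kb, higher than 23.4% of protein-coding genes, and none of them was found in both libraries. The order between H19 and Meg3 depended on the window. With a flank of 20 kb the density was 18.8 at H19, 16.4 at Cdkn1c, 7.92 at Dlk1, 4.51 at Kcnq1ot1 and 0.707 at Meg3. With 100 kb it was 12.1 at H19 and 8.56 at Igf2. Counting only peaks over 2 kb from every TSS, the density at H19 was 12.7. Among the stronger 50% of peaks the density was 8.77 at H19, 4.97 at Plagl1, 4.87 at Cdkn1c, 3.63 at Kcnq1ot1 and 0 at Meg3.

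**Figure D4:**
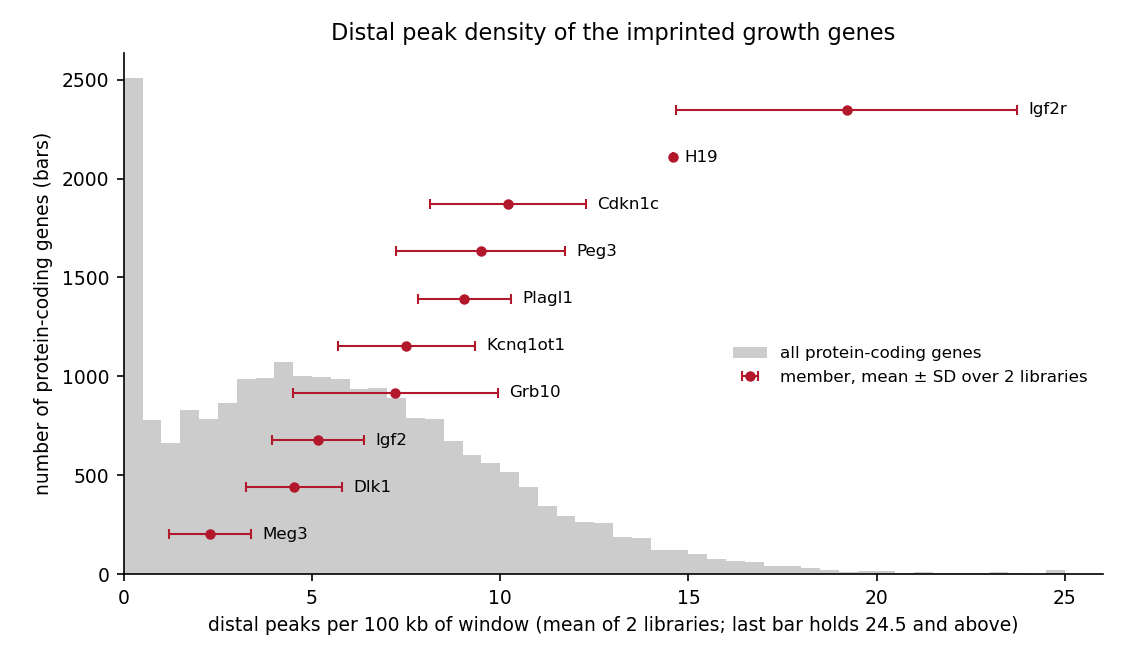
Distal peaks per 100 kb of window (x axis, mean of both libraries) for all 21938 protein-coding genes as bars and for the members as dots with SD (n = 2); the height of a dot only separates the names. Igf2r and H19 lie in the right tail and Meg3 lies left of the median of 5.26.

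Beside those of Peg3 and Igf2 given above, the strongest distal sites lay in introns or in either flank. In Grb10 an intronic peak 72712 bp from the 5' start had values of 101 and 97 (99.0 ± 2.83, SD, n = 2), close to the highest of Peg3. A peak 136972 bp from the 5' start, downstream of the gene, had 90 and 86. In replicate 1 that peak lay 3567 bp from the nearest TSS, beside the neighbour Ddc, which has its own promoter peak in both libraries. In the Igf2r window a peak 40907 bp upstream of the gene had 97 and 78 (87.5 ± 13.4), and an intronic peak at 9833 bp had 82 and 81 (81.5 ± 0.707). At Kcnq1ot1 the highest, 84 and 72, lay 115618 bp downstream of the start, beyond the end of the transcript. Plagl1 had 66 and 61 at 43733 bp upstream. The highest at Cdkn1c and Dlk1 were lower, 43 and 65 at 3041 bp upstream of Cdkn1c and 45 and 52 at 14932 bp upstream of Dlk1. Windows can also hold neighbouring genes, and which gene a distal site acts on was not tested.

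Some of these sites fall on enhancers that were tested in transgenic mouse embryos and listed in the VISTA collection, as RefSeq annotates them. The windows held 6 such enhancers, 4 of them active in embryonic heart, and 2 of these 4 had a peak in both libraries. Over the genome 86.8% of 159 enhancers active in heart had one, and 44.9% of 461 without listed heart activity. Enhancer mm154 in Grb10 (chr11:11956742-11957743) held the peak of 91 and 86 (88.5 ± 3.54, SD, n = 2), placed on the same bases in both libraries. Enhancer mm89 upstream of Igf2r (chr17:12789717-12793070), which is active in heart and blood vessels, held 4 peaks of 65 to 84 in replicate 1 and 5 of 53 to 76 in replicate 2. It also contains the start of the lncRNA gene CT030636.1, and 1 of the 4 peaks and 2 of the 5 lay within 500 bp of it.

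The other heart enhancers were seen in replicate 1 only. Enhancer mm178 in Grb10 had peaks of 47 and 50 there, and mm50 downstream of H19 had 27. Enhancer mm47, between H19 and mm50 and with no listed heart activity, had 3 peaks of 23 to 33 in replicate 2 only, among them that of segment E2. The forebrain and midbrain enhancer mm799, between Dlk1 and Meg3, had none in either library. The peak in mm154 is shown on the strand of Grb10 (minus), since it is the strongest member site on a tested heart enhancer. It holds neither the GATA letters AGATAA nor the TEAD letters GGAATG, so nothing is in capitals.
Grb10 mm154, chr11:11957316-11957465: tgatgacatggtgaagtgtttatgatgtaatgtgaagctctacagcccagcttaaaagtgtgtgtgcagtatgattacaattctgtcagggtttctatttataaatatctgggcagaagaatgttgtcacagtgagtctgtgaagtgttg

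**Figure D5:**
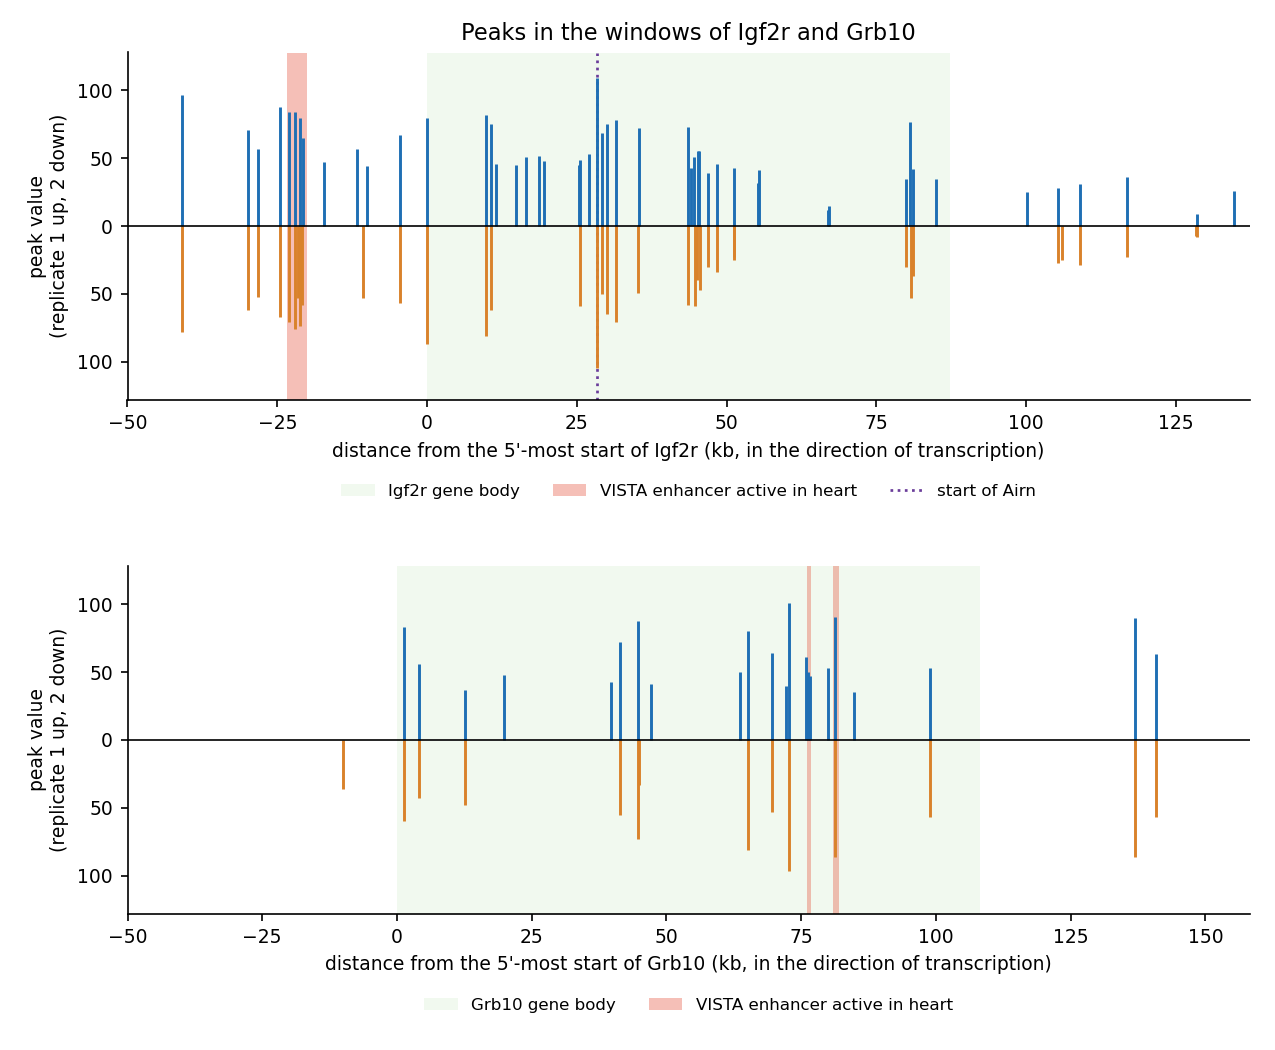
Peaks in the windows of Igf2r and Grb10 by distance from the 5'-most TSS (kb) and by value, replicate 1 up and replicate 2 down; shading marks the gene body and VISTA heart enhancers, and the dotted line the start of Airn. Igf2r carries peaks along the gene and upstream of it (50 and 37 in its window), while those of Grb10 (22 and 14) lie mostly inside the gene.

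Over the union of the windows there were 197 peaks in replicate 1 and 156 in replicate 2. Of the former 119 (60.4%) overlapped a peak of the other library, beside 70.1% of all peaks, and of the latter 121 (77.6%), beside 79.8%. Peaks found in both libraries had a median value of 55.0 and 51.0, and those found in 1 library only had 31.0 and 27.0. At Igf2 all 13 peaks of replicate 2 were found in replicate 1, while 13 of 22 peaks of replicate 1 (59.1%) were found in replicate 2. Each of the 119 replicate 1 peaks was set against the replicate 2 peak that overlapped it most, which 2 of them could share. Their median log2 ratio of replicate 2 over replicate 1 was -0.15. Over all peaks it was -0.14 in 113417 pairs, which were limited to mutual best overlaps. The listed values were thus slightly lower in replicate 2 in both sets. By member the median ran from -0.24 at Meg3 to 0.12 at Dlk1, with only 4 and 3 pairs.

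Motif letters were counted over all peaks of the windows. The CTCF core was in 10.7% of member peaks of replicate 1 and 10.9% of replicate 2, beside 7.71% and 8.20% of all peaks. ZFP57 letters were in 5.58% and 6.41%, beside 4.32% and 4.64%. YY1 letters were in 3.55% and 3.85%, beside 2.27% and 2.48%, which rests on 7 and 6 peaks that include those of Peg3. The GATA letters of cardiac factors went the other way, 5.58% and 6.41% beside 8.47% and 7.98%, and TEAD letters were in 12.7% and 14.7% beside 10.9% and 11.0%. Median GC content was 52.7% and 54.0% in the member peaks and 51.3% in all peaks of either library.

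Genes that share the imprinted clusters formed a list of 31 in the annotation. Of these, 20 showed promoter peaks in each library, 2 in only 1 library and 9 in neither. The 25 protein-coding neighbours gave 19 of the 20 (76.0%, beside 63.7% of all protein-coding genes), and the 6 noncoding ones gave 1 (16.7%, beside 26.9% of all lncRNA genes). Among the 19 is Usp29, through the start that it shares with Peg3. The highest were Tssc4 (119 and 117), the histone chaperone gene Nap1l4 (119 and 108) and Airn. No promoter peak was listed for Th, which encodes tyrosine hydroxylase, Tspan32, Nctc1, the cation transporter gene Slc22a2, Rtl1, Rian, the thyroid hormone deiodinase gene Dio3, Zim2 and Zim3. Dio3 had no distal peak in either library.

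Of 22 genes of the insulin-like growth factor axis 13 (59.1%) showed promoter peaks in each library, near the 63.7% of all protein-coding genes, with 3 in only 1 library and 6 in neither. The highest were the receptor substrate Irs1 (109 and 98), the insulin receptor Insr (99 and 103) and the binding protein Igfbp4 (99 and 89). The genes with none were the insulin gene Ins1, the binding protein genes Igfbp1 and Igfbp3, the carrier gene Igfals, and Pappa and Pappa2, which encode proteases that cleave binding proteins.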

How the data were processed

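DNase-seq was done on 2 libraries of newborn heart. A text file that the authors deposited beside the lists of a library says that peaks come from the filtered mm10 alignments of that replicate alone. Aligner, caller and thresholds, not given in the sources used here, decide which weak sites are listed. As deposited, each peak has a signal value, a whole number of which no scaling for depth is known. Hotspots as deposited have a −log10 q, and their deposited score column was not used.

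The members and gene lists were chosen with earlier results of these data known. All results are descriptions, and no test was run, since 1 group of 2 libraries allows none. Chromosomes 1 to 19, X and Y were analysed against GENCODE vM21 and the RefSeq sequence of GRCm38. A promoter peak has its centre within 500 bp of a TSS, and peaks were shared when they overlapped by 1 bp. Percentiles give the share of peaks of a library with a lower value. Control regions were placed by offsets from a TSS: the 5'-most, that used by most transcripts (the 5'-most where several tie), or, in Plagl1 and Grb10, one chosen by CpG content. RefSeq elements (CTCF sites, H19 enhancer segments, VISTA enhancers) were looked up after the peaks had been seen. Of the lists, named genes were those with no promoter peak in either library and the 3 with the highest mean percentile. Of 32 listed neighbours, Hymai is not in the annotation. Motif letters were searched on both strands, and ZFP57 letters can overlap the CTCF core. Counting functions were checked on simulated peaks. Python 3.11.15, NumPy 2.4.6, pysam 0.24.0 and samtools 1.23.1 were used. Alternatives were other promoter windows and flanks, stronger peaks only, other overlaps, other motif windows and leaving out each library. With 2 libraries and unknown depth, the SD is the only measure of precision.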

Additional observations from a re-analysis of the deposited data

How the results depend on the processing

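Members with promoter peaks in each library numbered 9 within 250 bp and 1000 bp and with the stronger 50% of peaks, and 7 with the 5'-most TSS only, which drops Plagl1 and Grb10. Taken from 1 library alone, the number ran from 9 to 10, as did the hotspot count. The share of all genes with the 5'-most TSS only was not computed. With hotspots at the top −log10 q only, 5 members remained: Igf2r, Cdkn1c, Kcnq1ot1, Peg3 and Plagl1. The median of 8.28 distal peaks per 100 kb fell to 4.92 with the stronger 50% of peaks, which holds fewer peaks by construction, and from 1 library it ran from 7.06 to 8.97. Igf2r and H19 stayed highest and Meg3 lowest under every flank, distance and strength tried. Control regions with a peak ran from 8 to 9 from 1 library, and were 7 with stronger peaks and 8 with hotspots. CTCF letters were in 10.8% of member peaks on average and in 15.1% of 250 bp windows, which are longer. Among alternatives chosen after seeing the data, VISTA heart enhancers with a peak ran from 2 to 4 of 4 from 1 library, and CTCF sites with a peak were 2 with stronger peaks and 3 with hotspots or either library. No paired analysis was possible because the design has 1 group and no test. Depth is unknown, so weak sites such as those at Dlk1, the IG-DMR and the H19 enhancers cannot be called closed where no peak is listed.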

Other observations

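Of 27 imprinted genes outside the clusters of the members, 23 showed promoter peaks in each library, 2 in only 1 library and 2 in neither. The 25 protein-coding ones gave 21 (84.0%, beside 63.7% of all protein-coding genes), and both noncoding ones had a peak (26.9% of all lncRNA genes). Some of these genes have starts within 500 bp of each other, such as Peg10 and Sgce or Nnat and Blcap, and each gene was counted. The highest were Trappc9 (137 and 127), the ubiquitin ligase gene Ube3a (126 and 117) and Inpp5f (111 and 114). Those with none were Ndn, which encodes necdin, and Kcnk9, which encodes a potassium channel. Among genes for factors that read or keep imprints, 11 of 12 (91.7%, all protein-coding) did so, beside the same 63.7%. The highest were Arid4a (123 and 122), Yy1 (120 and 120), whose protein recognises the letters repeated in Peg3, and Uhrf1 (112 and 108), which helps to copy DNA methylation. The germline paralogue of Ctcf, Ctcfl, had a peak of 20 in replicate 1 only and was the remaining gene; it is named outside the rule, after its value was seen.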
